A study of Homo sapiens with 6 samples.

Results

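Ribosome footprints were compared gene by gene between the libraries labelled PHYHD1-WT and PHYHD1-MT of 786-O, an established line of clear cell kidney cancer in which VHL does not work. Ribo-seq sequences the short mRNA fragments that ribosomes shield from nuclease, so a gene's value reflects how many ribosomes sat on its coding sequence, which depends both on its mRNA and on how that mRNA is translated. PHYHD1 belongs to a family of iron- and 2-oxoglutarate-dependent dioxygenases that also holds PHYH, the peroxisomal enzyme that starts the breakdown of branched-chain phytanic acid. Every gene with a symbol and at least 1 TPM (footprints scaled to transcript length and to one total per library) in WT or MT was taken, which gave 10752 of the 19669 named genes of the table. Of these, 6348 reached 10 TPM in WT or MT and were not readthrough names, that is, names such as TVP23C-CDRT4 given to transcripts that run from one gene into the next; 49 of the 10752 were such names. In both libraries 10137 genes reached 1 TPM, 263 did so in WT only and 352 in MT only, and 32 were listed at 0 in WT and 18 in MT.

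The study held 6 libraries, 1 Ribo-seq and 1 RNA-seq library for each of 3 labels: EV for empty vector, WT and MT. The sources do not agree on the groups. The series title pairs PHYHD1-WT with a PHYHD1 from which 107 to 130 was deleted, marked MT, whereas the design text and sample labels call MT the line overexpressing PHYHD1, and the design text calls WT untreated. Cells were grown in 3 dishes per condition, and no source used here says whether dishes were combined in a library. Cycloheximide at 100 µg/ml was added to the medium to stop elongation, and footprints were made with RNase I. With 1 library per label no difference below has a replicate check or a p-value, and each is a difference between libraries. A gene is called higher or lower in WT when its TPM plus 1 differed at least 2-fold, a limit on size alone.

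Some markers of kidney and renal carcinoma were present in the footprints, and others were at or near 0. VIM, the mesenchymal filament protein, stood at 1691, 1662 and 1675 TPM in EV, WT and MT, and the renal lineage factor PAX8 at 98.8, 74.5 and 78.2 TPM. CDH6, a kidney cadherin, was at 46.6, 49.3 and 40.2 TPM. CA9, a hypoxia target that is a hallmark of clear cell tumours, did not exceed 0.077 TPM, and the proximal tubule receptor LRP2 was at 0 in all 3 Ribo-seq libraries. The blood markers PTPRC, CD3E and HBB and the endothelial markers PECAM1, CDH5 and VWF were at 0 in all 3, while CD14 was at 0.094 TPM in WT. Of 15 blood markers 10 were at 0 in all 3, and none exceeded 0.996 TPM. Of 10 endothelial markers 7 were at 0, and none exceeded 0.141 TPM. Of 10 fibroblast markers 4 reached 1 TPM in WT or MT, and the list summed to 3.50, 2.02 and 5.04 TPM in EV, WT and MT: DCN and COL3A1 were at 0 in all 3, COL1A1 was at 1.11, 0.755 and 1.35 TPM and LUM at 0.891, 1.03 and 0.916 TPM, and THY1 was lower in WT by the rule described above, at 0.730, 0 and 1.55 TPM.

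PHYHD1 itself (ENSG00000175287.19) was listed at 0 TPM in EV, 222 TPM in WT and 905 TPM in MT, a log2 difference of -2.02. Its mRNA stood at 0.092, 118 and 109.5 FPKM (fragments scaled to length and library size) in the same order. The WT and MT libraries therefore both held PHYHD1 mRNA far above EV, at like levels, while MT held 4.07 times the footprint value of WT on the scale of TPM plus 1. Which part of the coding sequence the footprints covered is not in the table. A WT library with this much PHYHD1 mRNA is not what the design text's word untreated describes, so WT and MT below mean the libraries so labelled.

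The footprints and the mRNA of the libraries carrying the same label tended to differ in opposite directions. Among genes at 10 or more in both assays without readthrough names (5335 genes), 69 differed at least 1.5-fold in mRNA between WT and MT (1.29%), a limit set after the values were seen. By a 2-fold limit 10 had more mRNA in WT (0.187%) and 2 less (0.0375%). Of these 69 genes, 48 (69.6%) had footprints that differed with the opposite sign and 21 with the same sign. The 33 genes with more mRNA in WT had a median footprint log2 difference of -0.25, and 21 of them had fewer footprints in WT. The 36 genes with less mRNA in WT had a median of 0.16, and 27 had more footprints in WT. Pearson's r across the 69 genes was -0.48 and Spearman's rho -0.44, as a description only, since genes of one library are not independent. Over all 5335 genes 52.7% had opposite signs and r was -0.15.

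TGM2, a protein-crosslinking transglutaminase, shows the pattern at its widest. Its mRNA was at 19.9 FPKM in WT and 7.09 FPKM in MT, and its footprints were at 6.88 TPM in WT and 24.9 TPM in MT, with EV at 15.5 TPM. NT5E, the surface enzyme CD73 that makes adenosine, had 25.5 and 8.49 FPKM of mRNA in WT and MT but 15.97 and 41.2 TPM of footprints. In the other direction FXYD2, a regulatory subunit of the sodium pump, had 9.55 FPKM in WT and 23.2 FPKM in MT of mRNA, with 128 and 75.6 TPM of footprints. Exceptions exist, of which 2 are given, chosen after their values were seen. COG6, of the Golgi tethering complex, had 34.55 and 10.9 FPKM with 13.3 and 11.9 TPM, and MARS1, the methionine-charging synthetase, had 215 and 86.9 FPKM with 139 and 112 TPM.

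**Figure D1:**
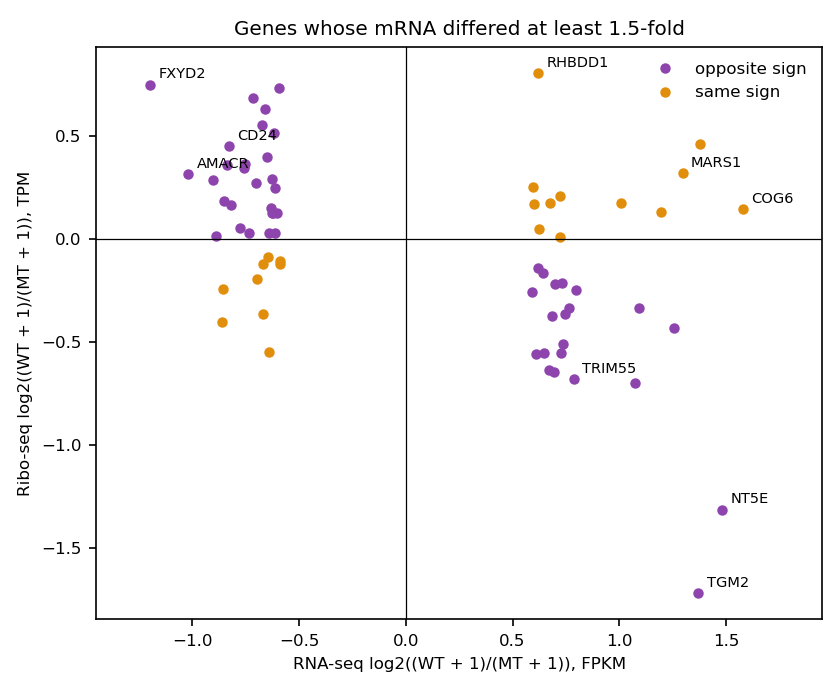
Log2 difference of WT over MT in RNA-seq (x axis, FPKM plus 1) and Ribo-seq (y axis, TPM plus 1) for the 69 genes whose mRNA differed at least 1.5-fold; each point is a gene. Purple points (48) lie in the quadrants of opposite sign and orange points (21) in those of the same sign.

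Whether 2 libraries of one assay carry each other's label was not tested. An exchange in Ribo-seq would turn the sign of every footprint difference given here, and that of PHYHD1 with them, and would leave the sizes as they are. For that reason each result is given with both values.

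Between the WT and MT footprint libraries most genes differed little. Over the 10752 genes the median log2 difference was 0.01, with 5548 genes above 0 (51.6%) and 5202 below (48.4%), and the robust SD across genes was 0.31. By the 2-fold rule 156 genes (1.45%) were higher in WT and 187 (1.74%) lower, 343 in all (3.19%). Of the 343, 242 (70.6%) stayed under 10 TPM in both libraries. Among the 6348 genes at 10 TPM or more, 50 were higher (0.788%) and 45 lower (0.709%), or 1.5% in either direction.

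The spread narrowed with level. Genes with a mean of 1 to 3 TPM had a robust SD of 0.43 and 6.28% of them passed the rule, against 0.31 and 1.59% at 10 to 30 TPM and 0.18 and 0.176% at 300 TPM or more. Over 1277 genes with values under 1 TPM in both, a ratio of WT to MT of 1.35 recurred most often. It was sought only within a preset range of ratios above 1, so it cannot show in which library 1 read was worth more TPM. TPM keeps no read totals, so the error of a value from counting is unknown. Among genes at 10 TPM or more without readthrough names, those nearest the limit were ZFAND6, just inside at 70.3 TPM in WT and 34.6 TPM in MT, EIF2AK3, just outside at 16.6 and 7.83 TPM, KAT2A, just inside on the lower side at 6.23 and 13.5 TPM, and F3, just outside at 17.1 and 34.9 TPM. At the 1 TPM minimum, 114 genes had a largest value from 1 to under 1.1 TPM, and 104 genes left out had one from 0.9 to under 1.

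**Figure D2:**
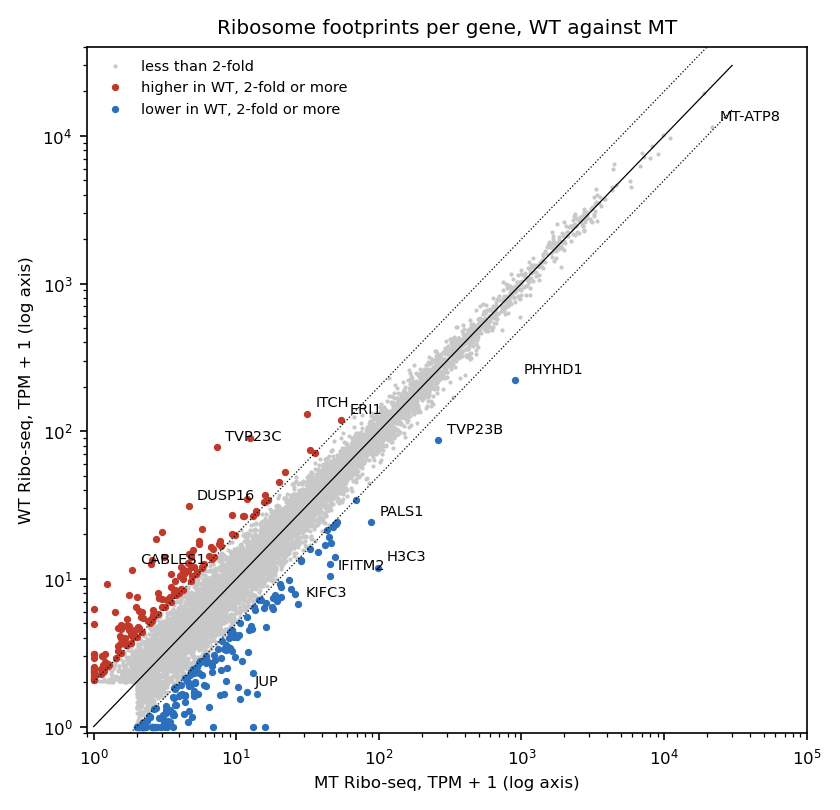
Ribo-seq TPM plus 1 in MT (x, log axis) and WT (y, log axis) for the 10752 genes; the solid line marks equal values and the dotted lines a 2-fold difference. Red points (156) are higher in WT and blue points (187) lower, and most of them lie at low values; PHYHD1 and TVP23B stand out on the MT side at high values and ITCH on the WT side.

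At 100 TPM or more, 1554 genes were measured and 4 passed the rule (0.257%). PHYHD1 and TVP23B were lower in WT, and ITCH and ERI1 were higher. ITCH, a ubiquitin ligase of the NEDD4 family, was at 63.3 TPM in EV, 131 TPM in WT and 30.4 TPM in MT (log2 2.07), so that EV lay between both. Its mRNA hardly differed, at 38.1, 39.5 and 40.5 FPKM. ERI1, an exonuclease that trims the 3′ ends of histone mRNA and of a ribosomal RNA, was at 62.5, 118 and 53.4 TPM (log2 1.13), with MT near EV. TVP23B, a Golgi membrane protein, was at 203 TPM in EV, 86.5 TPM in WT and 260.6 TPM in MT (log2 -1.58) and has a close relative, described below, that differed the other way.

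The next genes on the higher side stayed short of 2-fold. GABARAPL1, an autophagy protein of the ATG8 family, was at 126, 229 and 118 TPM in EV, WT and MT (log2 0.95). BLCAP was at 90.4, 123 and 65.9 TPM (0.89) and FXYD2 at 115, 128 and 75.6 TPM (0.75). MRPL58, which frees peptides from stalled mitochondrial ribosomes, was at 132, 260.3 and 162 TPM (0.68). SEC31A, of the coat that buds vesicles from the endoplasmic reticulum, and DCTN5, a dynactin subunit, both had a log2 difference of 0.67. In ITCH, ERI1, GABARAPL1, BLCAP, SEC31A and DCTN5 WT was the highest of the 3 libraries and MT the lowest.

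On the lower side, PPIF, the mitochondrial cyclophilin, was at 270.0, 239 and 401 TPM in EV, WT and MT (log2 -0.74). MRPL34 of the mitochondrial ribosome was at 141, 90.3 and 151.01 TPM (-0.74), and CD59, which protects cells from complement, at 64.4, 75.5 and 125 TPM (-0.72). The metal-binding protein MT2A was at 1128, 590 and 975 TPM (-0.72), so that WT was the library apart from the other two, while for PPIF and CD59 it was MT. The histone gene H3C11 was at 294, 171 and 329 TPM (-0.94). Common reference genes were closer: ACTB was at 9676 TPM in WT and 10930 TPM in MT (-0.18) and GAPDH at 2836 and 2558 TPM (0.15).

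Of the 50 genes higher in WT at 10 TPM or more, those with roles in signalling and the cell cycle are given first. DUSP16, a phosphatase that switches off the MAP kinases JNK and p38, was at 3.98 TPM in EV, 30.3 TPM in WT and 3.64 TPM in MT (log2 2.75), while its mRNA was at 6.06, 5.05 and 8.69 FPKM. RAD9A, part of the ring clamp that signals DNA damage, was at 4.98, 11.5 and 1.52 TPM (2.31). CABLES1, an adaptor of cyclin-dependent kinases, was at 0.844, 10.4 and 0.850 TPM (2.63). For DUSP16 and CABLES1 the EV and MT libraries were alike and WT stood alone.

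The sodium channel gene SCN8A also set WT apart, at 0.841, 12.5 and 1.55 TPM in EV, WT and MT (log2 2.40). KCTD6, which brings substrates to cullin-3 ligases, was at 12.7, 20.7 and 4.74 TPM (1.92). TMCC1, a membrane protein of the endoplasmic reticulum, was at 16.7, 17.1 and 4.49 TPM (1.72), and there it was MT that lay below the other two. NDRG4 was at 5.51, 14.7 and 3.96 TPM (1.66) and the zinc finger gene ZNF417 at 2.25, 13.02 and 3.81 TPM (1.54).

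Of the 45 genes lower in WT, those with roles in adhesion and cell shape are given first. JUP, plakoglobin of desmosomes and adherens junctions, was at 6.32 TPM in EV, 0.712 TPM in WT and 10.9 TPM in MT (log2 -2.79). PALS1, a scaffold of the Crumbs polarity complex, was at 27.2, 23.2 and 87.0 TPM (-1.86), with mRNA at 11.92, 12.02 and 12.13 FPKM. KANK2, which links integrin adhesions to microtubules, was at 21.6, 11.6 and 44.1 TPM (-1.84). KIFC3, a minus-end-directed kinesin, was at 6.10, 5.79 and 25.9 TPM (-1.99), with mRNA at 19.3, 19.5 and 21.3 FPKM. For PALS1 and KIFC3 the MT library stood alone, with WT near EV and mRNA nearly level.

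G0S2, an inhibitor of triglyceride lipase, was at 8.45, 2.22 and 11.01 TPM in EV, WT and MT (log2 -1.90). IQSEC2, an exchange factor for ARF GTPases, was at 10.0, 3.69 and 15.1 TPM (-1.77), SPATS2 at 18.5, 13.1 and 48.1 TPM (-1.80), and NUBPL, needed to build respiratory complex I, at 16.3, 7.54 and 23.4 TPM (-1.51). EV lay between WT and MT in all 4. The EV value fell between WT and MT in 39 of the 50 genes higher in WT and in 35 of the 45 lower. It was nearer to MT than to WT in 30 and 26 of them. Because these genes were picked for a gap of at least 2-fold between WT and MT, EV values tend to fall inside it. The same shares over all genes were not computed, so the counts show nothing particular about EV.

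**Figure D3:**
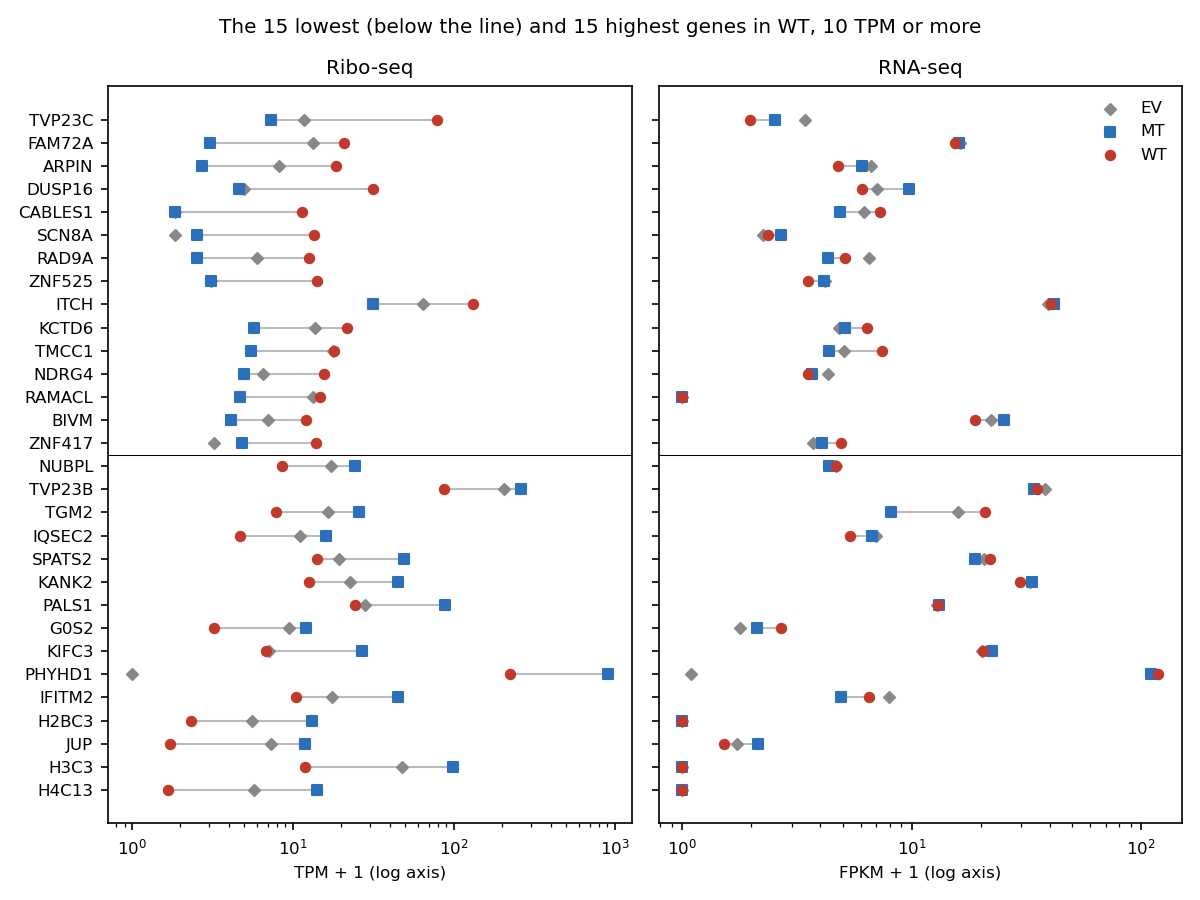
Ribo-seq TPM plus 1 (left) and RNA-seq FPKM plus 1 (right), both on log axes, of the 15 highest (above the line) and 15 lowest (below) genes of WT over MT at 10 TPM or more; grey diamonds are EV, blue squares MT and red circles WT. The footprint values of WT and MT lie far apart, while the mRNA values of most genes lie close together; genes at 1 on the right are listed at 0 FPKM.

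The mRNA of these genes mostly did not follow. In RNA-seq 32 of 11013 genes were higher in WT by the same 2-fold rule (0.291%) and 24 lower (0.218%), 56 in all (0.508%). Of the 49 genes higher in footprints that had an mRNA value, none passed it, 46 were within 1.5-fold, and the median mRNA log2 difference was -0.01. Of the 42 lower in footprints with an mRNA value, 37 were within 1.5-fold and the median was 0.10. The 2 that passed, TGM2 and NT5E, did so in the opposite direction. The sign of the mRNA difference was the same as that of the footprints for 23 of the 49 and for 11 of the 42. Of the 5335 genes at 10 or more in both assays, 1.29% differed at least 1.5-fold in mRNA. Values within 1.5-fold were thus usual for genes in general. In that set 2518 genes had the same sign in both assays and 2813 the opposite. Some called genes had less mRNA than that set requires.

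Several of the largest differences fell on genes with near-identical copies or overlapping names, whose short footprints can be divided between copies by the counting method, which no source used here names. FAM72A was at 12.4 TPM in EV, 19.9 TPM in WT and 2.04 TPM in MT (log2 2.78), while its copy FAM72D was at 0, 3.57 and 11.9 TPM (-1.50). Over the 4 FAM72 genes together the sums were 21.3, 30.4 and 19.6 TPM, a log2 difference of 0.61. ZNG1E, of a family of zinc chaperones, was at 27.9, 26.9 and 12.7 TPM (1.02), while ZNG1A was at 17.9, 23.2 and 49.6 TPM (-1.06), and the 5 ZNG1 genes summed to 358, 337 and 369 TPM (-0.13). In both families 1 copy was higher and another lower in WT, and the log2 difference of the sum was smaller than that of either. To show how alike the copies are, 100 bases upstream of their starts are printed below, from RefSeq on GRCh38.p14, with the bases that differ within each pair in capitals. FAM72A lies at chr1:206204258-206204357 on the minus strand and FAM72D at chr1:145094516-145094615 on the plus strand. ZNG1A lies at chr9:179063-179162 on the minus strand and ZNG1E at chr9:65675784-65675883 on the plus strand.
FAM72A: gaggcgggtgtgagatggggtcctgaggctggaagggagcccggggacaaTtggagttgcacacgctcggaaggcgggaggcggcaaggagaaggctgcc
FAM72D: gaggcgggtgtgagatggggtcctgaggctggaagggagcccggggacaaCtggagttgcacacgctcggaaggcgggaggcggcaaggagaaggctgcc
ZNG1A: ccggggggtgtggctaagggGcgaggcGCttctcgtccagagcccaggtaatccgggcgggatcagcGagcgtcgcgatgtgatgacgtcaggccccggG
ZNG1E: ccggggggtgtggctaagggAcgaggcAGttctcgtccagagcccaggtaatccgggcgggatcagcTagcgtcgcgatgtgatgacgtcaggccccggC

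Over the RefSeq window around the start, FAM72A and FAM72D shared 292 of 293 aligned bases (99.7%) and ZNG1A and ZNG1E 284 of 292 (97.3%). TVP23B and TVP23C were less alike there, at 212 of 245 bases (86.5%). These windows lie mostly upstream of the transcripts. The coding sequences, from which footprints come, were not used here.

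TVP23C had the largest log2 difference among genes at 10 TPM or more without readthrough names, 3.43, with 10.7 TPM in EV, 77.4 TPM in WT and 6.30 TPM in MT, and the readthrough name TVP23C-CDRT4 differed with it at 20.9, 89.5 and 11.5 TPM. With TVP23B lower in WT, the 3 names summed to 235 TPM in EV, 253 TPM in WT and 278 TPM in MT, a log2 difference of -0.14. ARPIN, an inhibitor of the Arp2/3 actin nucleator, was at 7.196, 17.7 and 1.72 TPM (2.78), and ARPIN-AP3S2, which spans it, at 1.94, 0 and 12.01 TPM. With AP3S2 the sums were 91.6, 106 and 85.7 TPM (0.31). RAMACL, a copy of the cap methyltransferase activator RAMAC, was at 12.3, 13.7 and 3.70 TPM (1.64) with its mRNA listed at 0, and both genes summed to 88.8 TPM in WT and 88.7 TPM in MT. EOLA2 was at 8.25, 11.7 and 3.58 TPM and EOLA1 at 2.69, 5.14 and 10.4 TPM, and the log2 difference of their sums was 0.25. BIVM, at 6.01, 11.1 and 3.12 TPM (1.55), and FXYD2 also lie within readthrough names.

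Among histone genes, too, 3 had far larger log2 differences than the sums of their families. H3C3 was at 46.5 TPM in EV, 10.9 TPM in WT and 97.7 TPM in MT (log2 -3.05), H4C13 at 4.76, 0.673 and 13.1 TPM (-3.07) and H2BC3 at 4.59, 1.31 and 12.1 TPM (-2.50), all listed at 0 in RNA-seq. The H3 genes summed to 14311 TPM in WT and 14827 TPM in MT (-0.05), the H4 genes to 19603 and 17800.3 TPM (0.14) and the H2B genes to 13229 and 11974 TPM (0.14). Of 60 replication-dependent histone genes measured, 41 were above 0 and 19 below, with a median of 0.07. For 17 genes in 8 groups, H3C14 with H3C15 among them, the values were identical in all 3 Ribo-seq libraries. IFITM2, which blocks viral entry, differs from this pattern: it was at 16.5, 9.46 and 44.1 TPM (-2.11). The 3 IFITM genes still summed to 108 TPM in WT and 186 TPM in MT (-0.77), with 162 TPM in EV. Sums of other picked families stayed apart as well. The GPR89 genes summed to 42.1 TPM in WT and 76.6 TPM in MT (-0.85) and the NOTCH2NL genes to 15.3 and 26.8 TPM (-0.78). MTHFS with ST20-MTHFS summed to 35.4 and 53.2 TPM (-0.57).

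**Figure D4:**
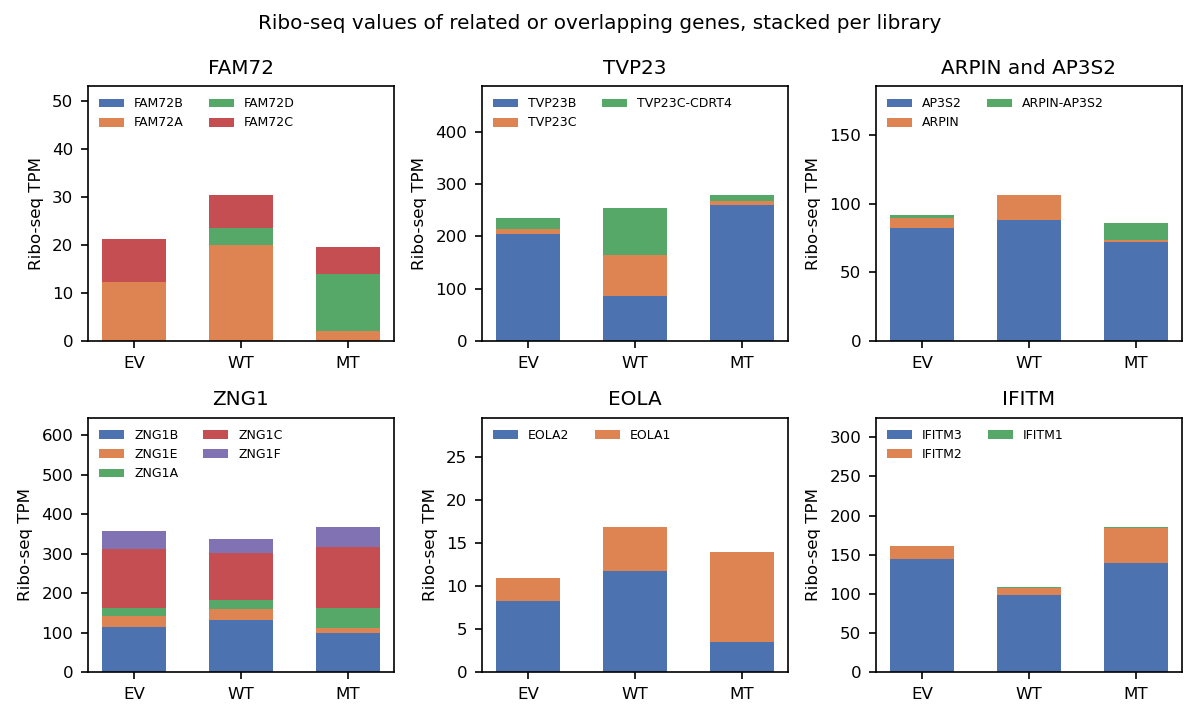
Ribo-seq TPM of the named copies or overlapping genes of 6 families, stacked by library (bars start at 0; colours mark genes). As log2 differences, which the bars do not show, the sums differ less between WT and MT than the most different single genes. This holds for FAM72, TVP23, ARPIN and AP3S2, ZNG1 and EOLA, while in IFITM the WT bar is the lowest.

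Gene groups were described by the number of members above and below 0 and by the median log2 difference, to be read against 51.6% above 0 and a median of 0.01 over all genes. Counts by the 2-fold rule are to be read against 1.45% of all genes higher and 1.74% lower. For mRNA, of the 5335 genes at 10 or more in both assays, 2879 were above 0 and 2453 below. Group mRNA counts cover members at 1 FPKM or more in WT or MT, so the comparison is rough. The translation machinery differed little. Of 79 cytosolic ribosomal proteins 34 were above 0 and 45 below (median -0.05), and none passed the rule. RPL37 was at 7124 TPM in WT and 8005 TPM in MT, and RPS24 at 8548 and 8175 TPM. The 34 initiation factors had a median of 0.01, the 78 mitochondrial ribosomal proteins -0.01 and the 20 cytosolic aminoacyl-tRNA synthetases 0.06. In mRNA 19 of the 20 synthetases (median 0.23) and 29 of the 34 initiation factors (0.11) were above 0. So were 57 of the 78 mitochondrial ribosomal proteins (0.04), but only 30 of the 79 cytosolic ones (-0.04). Of 59 tRNA modification enzymes 33 were below 0 (median -0.07) and 1 was lower by the rule, the methyltransferase-like TRMT9B, at 0.243 TPM in EV, 0.078 TPM in WT and 2.14 TPM in MT.

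The mRNAs encoded by mitochondrial DNA were mostly lower in WT, with none past the rule. Of 13, 10 were below 0 (median -0.30). MT-ATP8, a small subunit of ATP synthase, was at 11621 TPM in EV, 11487 TPM in WT and 21537 TPM in MT (log2 -0.91), with MT the library apart. MT-CO1, a cytochrome oxidase subunit, was at 429, 310 and 431 TPM (-0.48), with WT the library apart. Their mRNA also had 3 above 0 and 10 below, with a median of -0.05. The 76 nuclear-encoded genes of oxidative phosphorylation had a footprint median of 0.01. UQCRH and UQCRB of complex III, for example, were at 1940 and 4006 TPM in WT and 1876 and 3391 TPM in MT.

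Genes of G2 and M phase, which build the spindle and drive mitosis, were mostly higher in WT by small amounts. Of 59, 48 were above 0 and 11 below, with a median of 0.22 and none past the rule. KIF20A, a kinesin of the spindle midzone, was at 48.7 TPM in EV, 73.2 TPM in WT and 46.3 TPM in MT (log2 0.65), while the most abundant, CKS2 and UBE2C, were slightly lower in WT, at 2148 and 684 TPM against 2360 and 755 TPM. The 26 kinesins, some of them on the same list, had a median of 0.19. The mRNA of the G2 and M genes went the other way, with 19 above 0 and 40 below (median -0.05). Against EV their footprints had a median of 0.24 in WT and 0.02 in MT. In bulk libraries a larger share of cells in these phases and more footprints per cell cannot be told apart.

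Other groups of dividing cells lay nearer 0. The 51 genes of DNA replication had a median of 0.07, with PCNA at 488 TPM in WT and 464 TPM in MT, and the 63 of DNA damage checkpoint and repair had 0.10, with RAD9A alone past the rule. Splicing regulators of the SR and hnRNP families (38 genes, 27 above 0) had a median of 0.13, proteasome subunits (36, 27 above 0) 0.12 and cytosolic chaperones (32, 20 above 0) 0.11. HNRNPA2B1, an RNA-binding splicing factor, was at 1765 TPM in WT and 1517 TPM in MT, and the HSP90 co-chaperone PTGES3 at 1075 and 879 TPM. In mRNA 45 of 51 DNA replication genes (median 0.18) and 26 of 32 cytosolic chaperones (0.11) were above 0. So were 23 of 38 splicing regulators (0.03) and 36 of 63 checkpoint and repair genes (0.03). These mRNA medians had the sign of the footprint medians. For proteasome subunits it was 16 of 36 (-0.03), the opposite sign.

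Genes of the interferon response and of antigen presentation were mostly lower in WT. Of 53 interferon-stimulated genes 34 were below 0 and 19 above (median -0.16), and 4 were lower by the rule, against 1.74% of all genes: IFITM2, DDX60L, XAF1 and ISG20. DDX60L was at 3.88, 0.745 and 4.10 TPM in EV, WT and MT, the apoptosis regulator XAF1 at 6.22, 2.48 and 7.62 TPM, and the exonuclease ISG20 at 7.22, 3.39 and 8.06 TPM, all with MT near EV and all under 10 TPM. The summed level of all listed interferon-stimulated genes was 2298 TPM in EV, 1835 TPM in WT and 2178 TPM in MT. The mRNA median of the group had the opposite sign, 0.19, with 38 above 0 and 10 below.

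Of 17 antigen presentation genes 16 were below 0 (median -0.30). CD74, the invariant chain of MHC class II, was lower by the rule at 4.19, 1.49 and 7.57 TPM in EV, WT and MT. Among class I genes, HLA-B was at 286, 192 and 283 TPM (log2 -0.55) and B2M, their light chain, at 7804, 7503 and 9067 TPM (-0.27). For HLA-B it was WT that lay below EV and MT. Of 30 NF-kappaB and inflammatory genes 19 were below 0 (median -0.20), with TNFAIP3, which curbs NF-kappaB, lower by the rule at 1.66, 0.901 and 3.80 TPM. HLA-B and B2M were chosen after their values were seen. In mRNA 18 of 29 NF-kappaB and inflammatory genes were above 0 (median 0.11), and 8 of 17 antigen presentation genes (-0.0006).

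Immediate early genes, which growth factors and stress induce within minutes, were also mostly lower in WT. Of 22, 18 were below 0 (median -0.29), and FOS was lower by the rule at 3.11, 0.405 and 2.75 TPM in EV, WT and MT. Of 16 MAP kinase phosphatases and feedback genes 11 were below 0 (-0.25), with DUSP16 higher and the ERK target ETV4 lower, the last at 0.063, 0 and 1.71 TPM. Of 18 receptor tyrosine kinases 15 were below 0 (-0.33) and none passed the rule. EPHA2 was at 58.1, 45.7 and 58.6 TPM and AXL at 48.0, 43.3 and 49.8 TPM. The mRNA of 15 of 21 immediate early genes and 12 of 18 receptor tyrosine kinases was above 0 (medians 0.09 and 0.14). For the MAP kinase phosphatases and feedback genes it was 8 of 15 (0.02).

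Genes of the extracellular matrix and of mesenchymal cells had 30 of 37 members below 0 (median -0.23), none past the rule. TGFBI was at 2967 TPM in WT and 3232 TPM in MT, and VIM was level. Of 12 integrin subunits 10 were below 0 (-0.11), with ITGB1 at 352 TPM in WT and 372 TPM in MT. The 26 junction and epithelial genes had a median of 0.01, and 3 were lower by the rule: JUP, CLDN1 of tight junctions, at 12.7, 5.37 and 14.7 TPM in EV, WT and MT, and CDH3, at 0, 0 and 1.08 TPM. Of 24 genes characteristic of VHL-null renal carcinoma lines 18 were below 0 (-0.20), with TGM2 and NT5E past the rule. Their mRNA was above 0 for 14 of 22 (median 0.17). For matrix and mesenchymal genes it was 18 of 35 (0.04) and for integrin subunits 7 of 11 (0.08).

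Targets of the hypoxia-inducible factors had 27 of 38 members below 0 (median -0.10) and none past the rule. Activity of the factors themselves was not measured, nor which of them acts in this line. The 2 most abundant, the glycolytic enzymes GAPDH and TPI1, were at 2836 and 1788 TPM in WT and 2558 and 1888 TPM in MT, and the summed level of the list was 12824 TPM in EV, 12929 TPM in WT and 12540.0 TPM in MT, higher in WT. VEGFA, the vascular growth factor, was at 36.3 TPM in EV, 21.9 TPM in WT and 32.2 TPM in MT (log2 -0.54), and CCND1, cyclin D1, at 135, 114 and 139 TPM (-0.28). EPAS1, which encodes HIF-2alpha, was at 6.32, 4.996 and 6.56 TPM (-0.33), and VHL at 7.41, 9.12 and 9.96 TPM (-0.12). In VEGFA, CCND1 and EPAS1 the WT library was the lowest of the 3. Lysosomal genes had 29 of 42 below 0 (-0.14). The protease CTSD was at 749, 626 and 764 TPM. The more abundant PSAP, the precursor of the saposins, was at 866, 852 and 841 TPM. In mRNA 23 of 36 hypoxia targets (median 0.05) and 13 of 42 lysosomal genes (-0.06) were above 0.

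The relatives of PHYHD1 showed no common direction. Of 51 2-oxoglutarate dioxygenases measured 20 were above 0 and 31 below (median -0.05). PHYHD1 itself is among the 51 and the 31, and it alone passed the rule. PHYH was at 29.5 TPM in EV, 41.7 TPM in WT and 31.3 TPM in MT (log2 0.40), and was named after its value was seen. The 43 genes of peroxisomes and fatty acid oxidation had a median of 0.06, with SCP2, a sterol carrier of peroxisomes, at 266 TPM in WT and 263 TPM in MT. Medians were also within 0.1 of 0 for cholesterol and fatty acid synthesis (0.06), targets of ATF4 (0.05), endoplasmic reticulum chaperones (-0.04), targets of NRF2 (0.07), targets of p53 (-0.01) and autophagy (0.07).

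The other families grouped by symbol had medians closer to 0 than the kinesins did. The 370 ZNF zinc finger genes, mostly transcription factors, had a median of 0.02. By the rule 14 were higher and 9 lower, against 1.45% and 1.74% of all genes. Most were low, with 76 of the 370 at 10 TPM or more. Among all genes 6.28% at a mean of 1 to 3 TPM and 4.09% at 3 to 10 TPM passed the rule in either direction. The largest ZNF differences were those of ZNF487, at 3.17, 8.24 and 0.245 TPM in EV, WT and MT, and ZNF761, at 5.84, 0.849 and 9.32 TPM. ZNF525, at 2.09, 13.2 and 2.12 TPM (log2 2.18), and ZNF761 belong to 1 group of related genes whose sum was 17.4 TPM in WT and 14.47 TPM in MT. Of 180 solute carriers 1 was higher and 3 lower (-0.05), among them SLC7A6, an exchanger of cationic and neutral amino acids, at 7.66, 5.49 and 16.7 TPM. The RAB, TRIM and USP families each had 1 gene higher and 1 lower, with medians of 0.02.

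**Figure D5:**
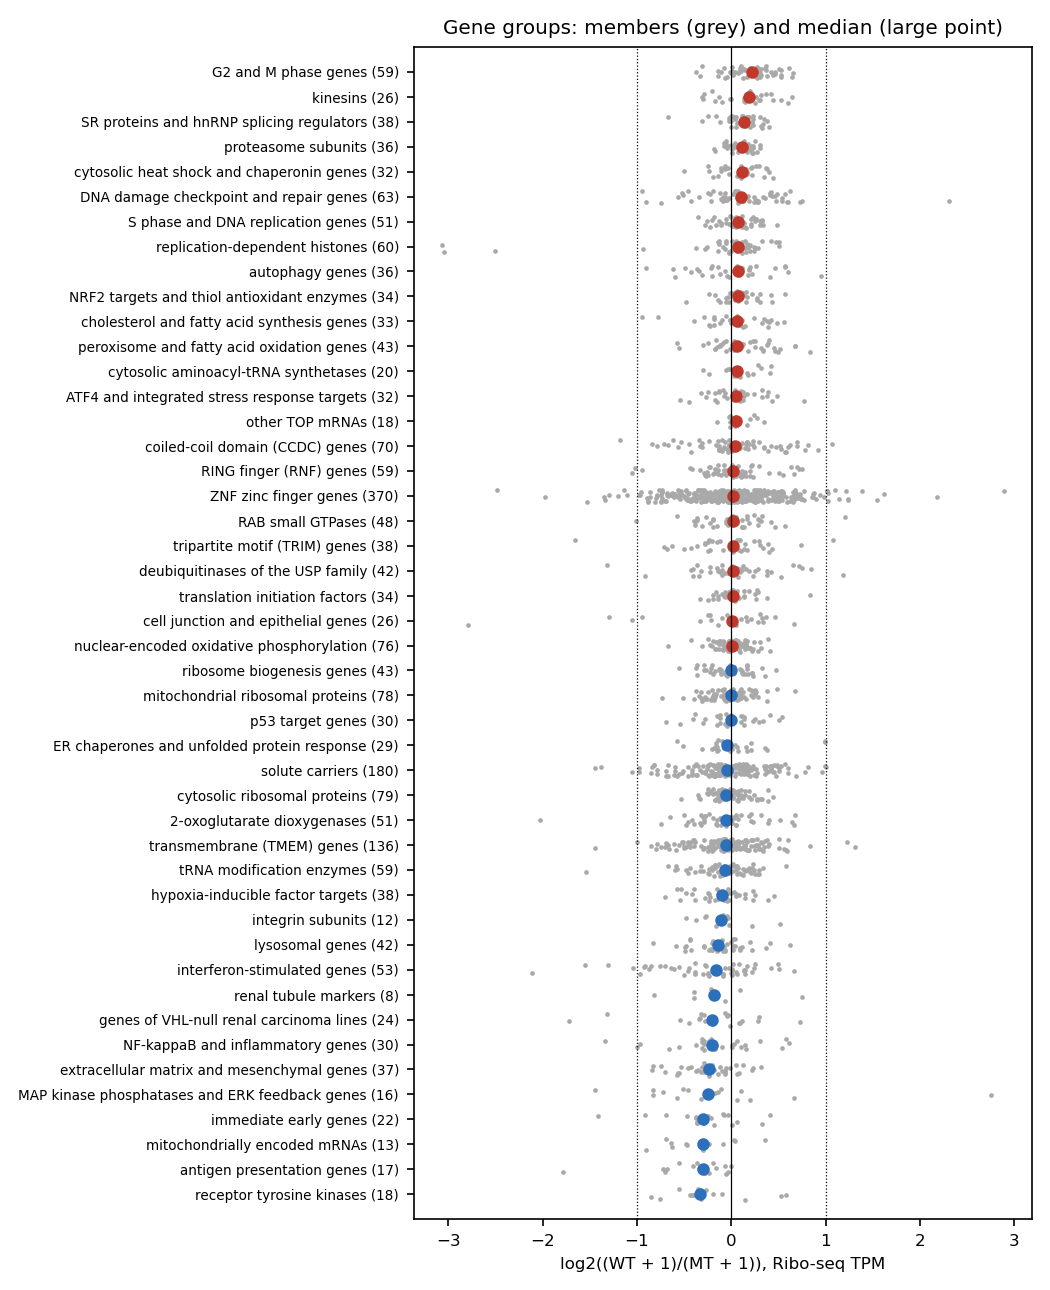
Log2 difference of WT over MT in Ribo-seq TPM plus 1 for each gene group with 5 or more measured members (number in brackets), sorted by median; grey points are genes, large points the group median, and dotted lines the 2-fold rule. Medians run from -0.33 for receptor tyrosine kinases to 0.22 for G2 and M phase genes, and most members lie inside the dotted lines.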

How the data were processed

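The deposited table has 1 column per library. The Ribo-seq columns are TPM, scaled to one total by the authors, since each deposited column sums to 1000000. For RNA-seq the header names no unit, and values were read as FPKM, because the deposited columns sum to 459938 to 469859; TPM over a larger set of genes cannot be told apart. The submitters' processing notes name the build hg 18; aligner, counting and annotation are not named by any source used here. Depth per library is unknown.

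Rows without a name (605 of 20307) and 7 names on several rows were left out; all 19669 remaining names were found in the symbol table. Differences are log2((WT + 1)/(MT + 1)), which understates those of low genes, with no test. Genes enter at 1 TPM in WT or MT and are called at 2-fold. Named genes comprise the 15 highest and 15 lowest called at 10 TPM or more, the 8 highest and lowest at 100 TPM or more, PHYHD1, 6 references and up to 4 members of each group past the rule or, with none, its 2 most abundant; others are marked. Copy families were picked after their values were seen. Members, rules and the 49 gene lists were chosen with earlier results of these data known. Protein length and composition were not analysed here. The size rule was run on simulated counts with known folds and counting noise alone, for genes at 10 TPM or more in MT. That checks the calculation, not whether calls from 1 library per label are right. Python 3.11.15, pandas 2.3.3, numpy 2.4.6 and scipy 1.17.1 were used. Alternatives were another pseudocount, centring, rescaling, other minimums and folds, and leaving out readthrough names and copies. Some genes are not reported here.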

Additional observations from a re-analysis of the deposited data

How the results depend on the processing

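The count of 343 genes past the 2-fold rule became 727 with a pseudocount of 0.1 and 60 with one of 5, 1347 at 1.5-fold and 32 at 4-fold, 101 at a minimum of 10 TPM in WT or MT and 194 at 1 TPM in both. The 101 genes at 10 TPM, readthrough names included, became 50 with a pseudocount of 5, 475 at 1.5-fold, 18 at 4-fold, 4 at 100 TPM and 35 at 10 TPM in both. Leaving out readthrough names, the genes they join and the copy families, an alternative chosen after seeing the data, left 78. Centring gave 337 and 100, and rescaling without mitochondrially encoded genes, histones and PHYHD1 gave 370 and 101. The PHYHD1 difference of -2.02 stayed between -2.04 and -2.01. The share of opposite signs was 80.0% of 15 genes at 50 or more in both assays. It was 65.4% of 456 genes at 1.25-fold mRNA and 58.3% of 12 genes at 2-fold. These limits were also chosen after seeing the data. At 50 or more, 10 of 10 genes with less mRNA in WT had opposite signs, but 2 of 5 with more. At 2-fold these were 2 of 2 and 5 of 10, and at 1.25-fold 138 of 209 and 160 of 247. Of 62 named genes past the rule besides PHYHD1, 28 dropped under it with a pseudocount of 5 and 1 by centring, and 0 reversed. No group median of 0.1 or more changed sign among the 46 groups compared, and the largest move was 0.17. Unknown depth limits every value under 10 TPM. No paired analysis was possible because each label has 1 library per assay. The analysis by protein length was not run, as no protein sequences were used here.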
